A study of Mus musculus with 6 samples.

Results

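Proteasome subunit genes were examined in flat cultures of epithelial cells from 3 regions of the mouse stomach. The members were the rows of the expression table whose symbol begins with Psma, Psmb, Psmc, Psmd or Psme and whose level was above 0 in any library, 42 of the 15431 genes used. Of 43 such rows, Psme2b was listed at 0 in all 6 libraries and was left out. Antrum (labelled antrum and pylorus together) and corpus, the glandular regions, were set against forestomach, whose lining in mice is squamous. All cultures came from wild type mice, the labels of all libraries carry p2 without explaining it, and each region had 2 libraries. The labels cite separate culture protocols for forestomach and for the glandular regions, so region and protocol cannot be told apart in any comparison with forestomach. Each region has 1 library with ID AT75 and 1 with ID AT76, which the labels do not explain and the table's columns do not carry. The labels do not say that the libraries of a region came from separate animals or cultures, so p-values cover the spread among these libraries alone, and that spread may be technical.

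The proteasome is the cell's main machine for degrading proteins tagged with ubiquitin. Its core particle is a barrel of outer alpha rings, which gate the entrance, and inner beta rings, which carry the catalytic sites. A regulatory particle sits on the barrel's ends: a base with a ring of ATPases unfolds the substrate, and non-ATPase subunits bind and remove ubiquitin. Interferon-inducible beta subunits (Psmb8, Psmb9, Psmb10) can replace the standard catalytic ones (Psmb5, Psmb6, Psmb7) to form the immunoproteasome, which favours peptides presented on class I molecules. Psme genes encode other activators that bind the barrel without ATP. The 42 members comprised 7 alpha ring, 7 standard beta ring, 3 inducible, 6 ATPase and 11 non-ATPase regulatory subunits, 3 chaperones of the regulatory particle, 4 activators and Psmc3ip. Psmc3ip encodes a meiotic recombination factor that shares only the prefix.

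Levels are in CPM, a read count scaled to the library's total, and fold changes are log2 differences of CPM + 1, which makes changes of low genes look smaller than they are. The totals, read from the even steps of the low values, were about 36.9 to 47.7 M reads per library, with 14.0 to 18.2 M on the rows of the table. A level of 0.063 to 0.081 CPM stands for 3 reads, counting error only. The cultures carried the markers of their labels. Of the columnar markers (Krt8, Krt18, Krt19, Cldn18 and Epcam), all 5 have a row, and they summed to 3230 to 5546 CPM in the glandular cultures, against 51.7 to 53.6 CPM in forestomach. The 3 squamous markers (Krt5, Krt14 and Trp63) summed to 1.32 to 2.39 CPM in the glandular cultures and to 9806 and 11122 CPM in forestomach.

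The standard proteasome was lower in the glandular cultures throughout its core. The summed level of the 14 standard core genes was 713, 659, 651 and 560 CPM in antrum 1, antrum 2, corpus 1 and corpus 2, against 1255 and 1353 CPM in forestomach 1 and forestomach 2. No glandular library reached the lower forestomach library. In a limma fit across the 11891 genes that reached 1 CPM in 2 or more libraries, 41 members were tested, 28 were lower and 1 was higher in the glandular cultures at a Benjamini-Hochberg adjusted p under 0.05. Among all genes tested 26.7% were lower and 21.1% higher, against 68.3% and 2.44% of the members. Without overlap between the libraries of the groups, 35 of the 41 members (85.4%) were lower, against 34.3% of all genes tested. The median log2 fold change of the tested members was -0.80, against -0.13 for all genes tested. Of all called genes 44.1% were higher, against 55.5% once libraries were brought to a common median ratio and 55.0% after rescaling to the listed total. Both rescalings moved the median of all genes to 0.06 and that of the members to -0.60, with 25 and 27 members lower. With 1 glandular library left out fewer members passed, 21 lower without corpus 1, 14 without corpus 2, 19 without antrum 1 and 17 without antrum 2. Among core and regulatory particle genes all 31 log2 fold changes stayed negative in each of these fits.

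**Figure D1:**
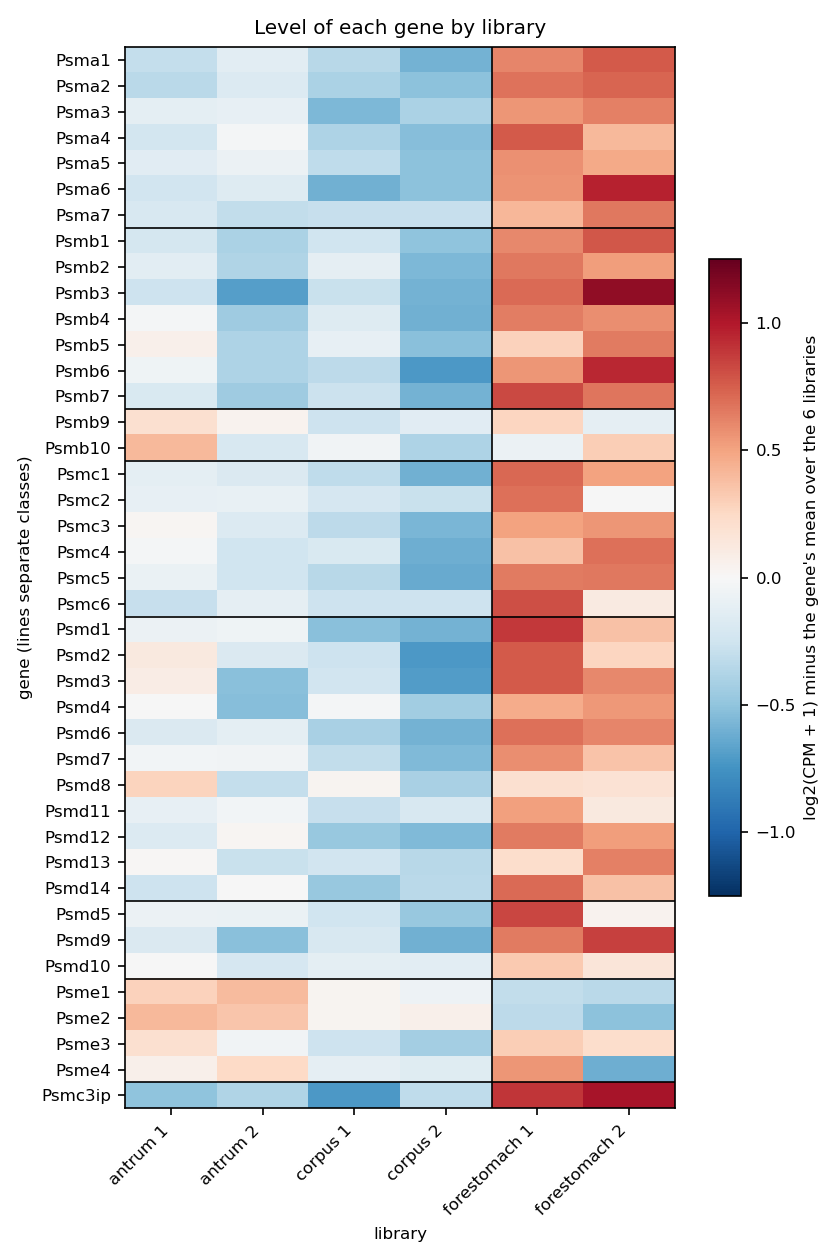
Level of each of the 41 tested genes (rows, grouped by class with lines between classes) in each library (columns), as log2(CPM + 1) minus the gene's mean over the 6 libraries. The alpha, beta, ATPase and non-ATPase classes are mostly red in the 2 forestomach libraries and blue in the glandular ones, whereas Psme2 shows the opposite colours.

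Of the alpha ring genes all 7 were lower in the glandular cultures, with log2 fold changes of -1.15 to -0.78 and a median of -0.89. The alpha ring carries no catalytic site. Psma6 had the lowest value of this class, and stood at 47.6, 50.3, 36.9 and 39.2 CPM in antrum 1, antrum 2, corpus 1 and corpus 2, against 84.0 and 111 CPM in forestomach 1 and 2. Every glandular library lay below both forestomach libraries. The log2 fold change of Psma6 was -1.15 (SE 0.23, adjusted p = 0.00299 in the limma fit). Psma5 was closest to 0 in this class (-0.78), at 22.0 ± 3.08 CPM over the glandular cultures (SD, n = 4) and 38.4 ± 1.71 CPM in forestomach (SD, n = 2).

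Of the standard beta ring genes all 7 were lower too, with log2 fold changes of -1.36 to -0.71 and a median of -1.03. Psmb3, a structural subunit of the ring without catalytic activity, had the lowest value. It stood at 43.3, 31.7, 42.6 and 34.1 CPM in antrum 1, antrum 2, corpus 1 and corpus 2, against 85.5 and 113 CPM in forestomach 1 and 2. The groups did not overlap, and the log2 fold change was -1.36 (SE 0.25, adjusted p = 0.00191 in the limma fit). Psmb4, another structural beta subunit, had the highest mean level per length of all members in both groups. Over the union of its coding transcripts' exons it stood at 70.2 ± 12.7 CPM per kb in the glandular cultures (SD, n = 4) and 132 ± 3.77 CPM per kb in forestomach (SD, n = 2). In forestomach Psmb3 was close to it, at 130 ± 25.7 CPM per kb (SD, n = 2), and was the higher one in forestomach 2 (148 against 130 CPM per kb).

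The catalytic subunits followed the ring they belong to. Psmb5 carries the chymotrypsin-like site, Psmb6 the caspase-like site and Psmb7 the trypsin-like site. Psmb6 stood at 50.5, 39.8, 41.5 and 31.4 CPM in antrum 1, antrum 2, corpus 1 and corpus 2, against 77.2 and 102 CPM in forestomach 1 and 2, giving a log2 fold change of -1.12 (with SE 0.25, adjusted p = 0.00535 in the limma fit). Psmb7 stood at 53.5, 44.8, 50.7 and 40.4 CPM in the same glandular libraries, against 109 and 97.9 CPM in forestomach (-1.12, SE 0.23, adjusted p = 0.00365). For both genes every glandular library was below both forestomach libraries. Psmb5 stood at 14.9, 10.7, 13.1 and 9.63 CPM in the glandular libraries, against 17.6 and 22.9 CPM in forestomach. Its groups did not overlap either, and its log2 fold change was the closest to 0 in the core (-0.71, SE 0.25, adjusted p = 0.0445). That call was lost on the scale of the median ratio, on that of the listed total and when no filter on low values was used. It was also lost without forestomach 2 and without each glandular library, with adjusted p up to 0.168.

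Levels per length varied among subunits that are assembled in equal numbers. Within the standard core the highest mean was 5.23 times the lowest in the glandular cultures and 5.86 times in forestomach. Psmb5 had the lowest mean of the 14 in both, at 13.4 ± 2.65 CPM per kb in the glandular cultures (SD, n = 4) and 22.6 ± 4.15 CPM per kb in forestomach (SD, n = 2). Psma3 was close to it in the glandular cultures, at 13.6 ± 2.13 CPM per kb (SD, n = 4), and lay below Psmb5 in corpus 1 and antrum 1. Lengths came from an annotation of another genome build than the mm9 build of the submitters' processing notes, so that these levels per length are approximate.

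Neither of the 2 tested inducible beta subunits passed, and Psmb8 was too low to be tested. Promoter sequences of the interchangeable subunits are shown here because these genes encode alternative forms of the same catalytic sites and the results below compare them pair by pair, except for Psmb7, which is named only. They are the 250 bases before the gene start, from RefSeq on build GRCm38.p6, 5′ to 3′ on the gene's strand, with matches to any of 4 searched motifs in capitals:
Psmb5, chr14:54617996-54618245 (minus strand): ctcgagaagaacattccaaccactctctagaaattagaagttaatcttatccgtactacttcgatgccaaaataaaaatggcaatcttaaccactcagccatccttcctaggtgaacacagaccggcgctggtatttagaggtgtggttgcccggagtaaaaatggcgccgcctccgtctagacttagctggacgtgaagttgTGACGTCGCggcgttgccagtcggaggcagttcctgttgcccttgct
Psmb8, chr17:34197945-34198194 (plus strand): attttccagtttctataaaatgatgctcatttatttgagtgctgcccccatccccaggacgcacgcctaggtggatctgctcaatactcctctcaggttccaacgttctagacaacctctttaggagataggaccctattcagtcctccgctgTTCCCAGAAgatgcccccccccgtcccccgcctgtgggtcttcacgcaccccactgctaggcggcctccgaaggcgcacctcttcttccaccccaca
Psmb6, chr11:70525107-70525356 (plus strand): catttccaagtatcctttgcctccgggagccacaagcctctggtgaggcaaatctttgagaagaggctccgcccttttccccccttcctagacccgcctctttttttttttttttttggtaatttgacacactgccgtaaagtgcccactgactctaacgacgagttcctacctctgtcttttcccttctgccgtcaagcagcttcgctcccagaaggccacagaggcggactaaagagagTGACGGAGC
Psmb9, chr17:34187331-34187580 (minus strand): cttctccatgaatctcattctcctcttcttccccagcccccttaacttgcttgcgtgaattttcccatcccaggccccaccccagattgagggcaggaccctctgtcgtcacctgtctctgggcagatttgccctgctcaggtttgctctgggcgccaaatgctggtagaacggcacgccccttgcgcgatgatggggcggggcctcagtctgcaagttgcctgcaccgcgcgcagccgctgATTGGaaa
Psmb10, chr8:105938393-105938642 (minus strand): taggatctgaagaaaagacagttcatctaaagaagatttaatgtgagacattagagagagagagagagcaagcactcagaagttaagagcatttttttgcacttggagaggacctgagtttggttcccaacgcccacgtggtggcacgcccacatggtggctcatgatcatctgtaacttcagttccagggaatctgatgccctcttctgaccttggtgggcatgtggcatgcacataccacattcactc
The motifs, searched on both strands, were the antioxidant response element core TGACNNNGC, the CCAAT box CCAAT, the interferon-stimulated response element core (GAAA, any 2 bases, GAAA) and the gamma-activated sequence TTCNNNGAA. Psmb5 and Psmb6 each hold 1 match to TGACNNNGC, Psmb8 holds 1 match to TTCNNNGAA, Psmb9 holds 1 CCAAT box on the opposite strand, and Psmb10 holds no match to any of the 4. In windows from 250 bases before to 50 after the start, TGACNNNGC was found in 6 of 39 windows of 36 members (15.4%), against 12.4% of the windows of all genes. The share for CCAAT was 35.9% against 37.4%, for the interferon-stimulated element 10.3% against 3.44% and for TTCNNNGAA 5.13% against 8.30%. The interferon-stimulated element was found in only 4 of the 39 windows, those of Psmb3, Psmd4, Psmd9 and Psme1. None of the 3 inducible subunits holds it. A match is a run of letters and says nothing of binding.

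Psmb10, the inducible counterpart of Psmb7, stood at 13.1, 8.27, 9.33 and 7.16 CPM in antrum 1, antrum 2, corpus 1 and corpus 2, against 9.15 and 12.2 CPM in forestomach 1 and 2. The groups overlapped, and the log2 fold change of -0.17 did not pass (SE 0.26, adjusted p = 0.615 in the limma fit). Under both rescalings of the libraries and without forestomach 2 its sign turned, with values of 0.01. Psmb9, the counterpart of Psmb6, stood at 1.01, 0.81, 0.46 and 0.59 CPM in the glandular libraries, against 1.11 and 0.62 CPM in forestomach, or about 17 to 39 reads a library in glandular cultures and 42 and 25 reads in forestomach. It overlapped as well (-0.12, SE 0.18, adjusted p = 0.626). Psmb8, the counterpart of Psmb5, was under the level needed for testing. It stood at 0.46, 0.43, 0.52 and 0.29 CPM in the glandular libraries, about 14 to 20 reads each, against 0.11 and 0.12 CPM in forestomach, about 4 and 5 reads. The groups did not overlap, and in a fit without the filter on low values the log2 fold change of CPM + 1 was 0.35 (SE 0.087, adjusted p = 0.0178).

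Within a library, the plain CPM ratio of an inducible subunit to its standard counterpart does not depend on how the library was scaled. Psmb10 stood at 24.5, 18.5, 18.4 and 17.7 CPM per 100 CPM of Psmb7 in antrum 1, antrum 2, corpus 1 and corpus 2, against 8.39 and 12.4 in forestomach 1 and 2. Psmb8 stood at 3.09, 4.03, 3.96 and 3.01 CPM per 100 CPM of Psmb5 in the glandular libraries, against 0.624 and 0.524 in forestomach. Neither pair overlapped between the groups. Psmb9 stood at 2.00, 2.03, 1.11 and 1.88 CPM per 100 CPM of Psmb6 in the glandular libraries, against 1.44 and 0.608 in forestomach, so that corpus 1 lay below forestomach 1. The log2 difference in the plain ratio was 0.94 for Psmb10, 2.61 for Psmb8 and 0.87 for Psmb9. A two-sided exact permutation test of 4 libraries against 2 gave p = 0.133 for Psmb10 and Psmb8, the smallest this design allows, and p = 0.267 for Psmb9. With 1 CPM added to both genes the differences were 0.94, 1.06 and 1.0, without overlap, and the exact permutation p was 0.133 for each of the 3 ratios, raw and adjusted over the 3. The added 1 is larger than all values of Psmb8 and close to those of Psmb9, so that on this scale their ratios mostly follow Psmb5 and Psmb6.

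**Figure D2:**
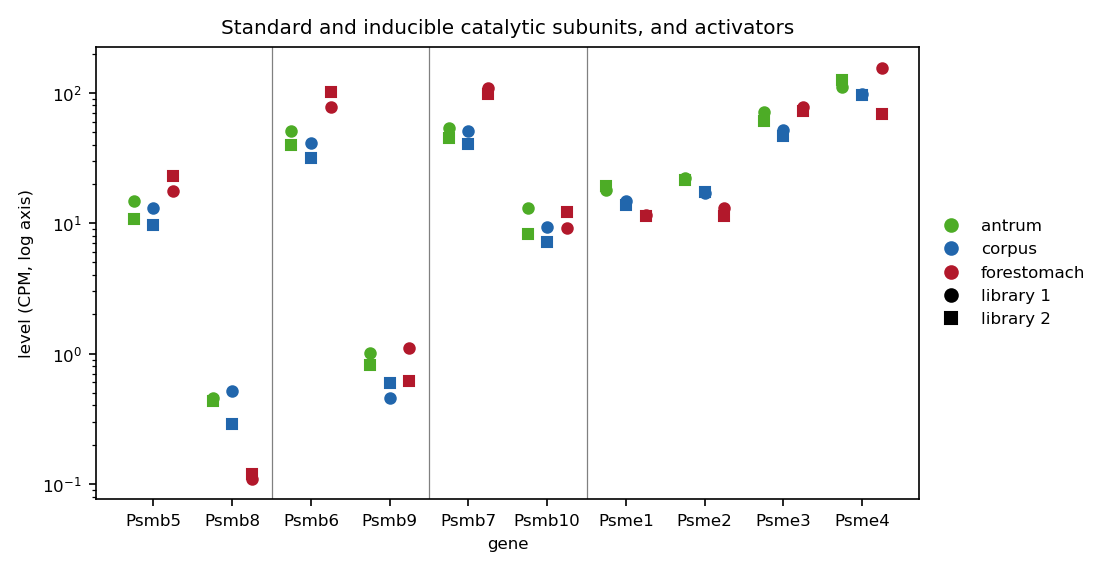
Level in CPM (log axis) of each standard catalytic subunit beside its inducible counterpart, and of the 4 activators, in every library (circles for library 1, squares for library 2). Psmb5, Psmb6 and Psmb7 are lower in all antrum and corpus libraries than in forestomach, Psmb9 and Psmb10 overlap, and Psmb8 stays under 0.6 CPM throughout.

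Genes of class I antigen processing, the pathway that uses the immunoproteasome's products, went both ways. Of 10 tested, 3 were higher and 1 lower in the glandular cultures, with a median log2 fold change of 0.06. Among all genes tested 21.1% were higher and 26.7% lower, so these counts are a description. The 3 higher ones on this list were the loading chaperone Tapbp (1.55, SE 0.26, adjusted p = 0.000969 in the limma fit), the class I heavy chain H2-K1 (1.15, SE 0.27, adjusted p = 0.00692) and the peptide-trimming protease Erap1 (0.63, SE 0.23, adjusted p = 0.0469). The peptide transporter subunit Tap1 was lower, at 9.34, 7.08, 5.37 and 4.11 CPM in antrum 1, antrum 2, corpus 1 and corpus 2, against 37.0 and 38.2 CPM in forestomach (-2.42, SE 0.23, adjusted p = 2.94e-05). Nlrc5, also on this list, was under the level needed for testing. It stood at 0.08, 0.19, 0 and 0.13 CPM in the same glandular libraries, against 0.93 and 1.73 CPM in forestomach, without overlap. H2-K1 has close copies whose reads the counting could have split. Immune markers, of which 8 of 11 have a row, summed to 7.84 to 16.2 CPM in the glandular cultures and to 51.2 and 48.5 CPM in forestomach 1 and 2. Cd68 made up most of the forestomach sum, at 44.8 and 39.5 CPM, and was lower in the glandular cultures. H2-Ab1 and H2-Eb1 were called lower too. Both were under 1 CPM in all glandular libraries and entered the fit only through forestomach, so these calls are a description. Cd14 was the largest part of the glandular sums, at 11.8, 11.1, 6.19 and 4.07 CPM in antrum 1, antrum 2, corpus 1 and corpus 2, against 1.67 and 3.34 CPM in forestomach, and was higher (1.35, SE 0.27, adjusted p = 0.00282). Their part in the values of the inducible subunits was not tested. Of the defining markers, the pan-leukocyte gene Ptprc stood at 0 in both forestomach libraries, and at 0.03 to 0.13 CPM in the glandular ones, and Adgre1 was at 0 in all libraries.

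The regulatory particle was lower in the glandular cultures as well, in 12 of 17 genes, with a median log2 fold change of -0.79. Of the 6 ATPases 4 were lower. Psmc5 had the lowest value of these, at 37.3, 33.1, 31.0 and 25.1 CPM in antrum 1, antrum 2, corpus 1 and corpus 2, against 62.7 and 63.2 CPM in forestomach 1 and 2. Its groups did not overlap (-0.98, SE 0.22, adjusted p = 0.00559 in the limma fit). The ATPases Psmc2 (-0.52, adjusted p = 0.127) and Psmc6 (-0.69, adjusted p = 0.0537) did not pass, although their groups did not overlap. Both differed widely between the forestomach libraries, Psmc2 at 95.4 and 58.5 CPM and Psmc6 at 111 and 68.2 CPM.

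Of the 11 non-ATPase regulatory genes 8 were lower, with log2 fold changes of all 11 between -1.03 and -0.29. Psmd3, a lid subunit, had the lowest value, at 68.2, 44.3, 53.8 and 39.0 CPM in antrum 1, antrum 2, corpus 1 and corpus 2, against 109 and 97.5 CPM in forestomach 1 and 2 (-1.03, SE 0.27, adjusted p = 0.0114). All glandular libraries were below both forestomach libraries. Psmd14, the deubiquitinase of the lid, and Psmd4, a ubiquitin receptor, were among the 8 that passed. Their log2 fold changes were -0.81 and -0.75 (adjusted p = 0.0183 and 0.0368 in the limma fit). The call of Psmd4 was lost after rescaling to a common median ratio. With a library left out, Psmd14 ranged from -0.98 to -0.64 and Psmd4 from -0.88 to -0.62. Psmd8, a lid subunit, was the only one of the 31 core and regulatory particle genes whose groups overlapped. It stood at 133, 89.3, 113 and 82.6 CPM in the glandular libraries, against 126 and 125 CPM in forestomach (-0.29, SE 0.27, adjusted p = 0.403). The others that did not pass were Psmd11 (-0.47, adjusted p = 0.116) and Psmd13 (-0.64, adjusted p = 0.0538).

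Among the chaperones that assemble the base, Psmd9 was lower. It stood at 10.02, 7.68, 9.90 and 7.22 CPM in antrum 1, antrum 2, corpus 1 and corpus 2, against 18.5 and 21.6 CPM in forestomach 1 and 2 (-1.13, SE 0.24, adjusted p = 0.00407 in the limma fit). Psmd5 (-0.66, adjusted p = 0.0702) and Psmd10 (-0.36, adjusted p = 0.201) did not pass, and no chaperone overlapped between the groups. Psmc3ip had the lowest log2 fold change of all members, -1.44 (SE 0.20, adjusted p = 0.000323). It stood at 1.01, 1.19, 0.73 and 1.28 CPM in the glandular libraries, against 4.30 and 4.81 CPM in forestomach, without overlap.

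**Figure D3:**
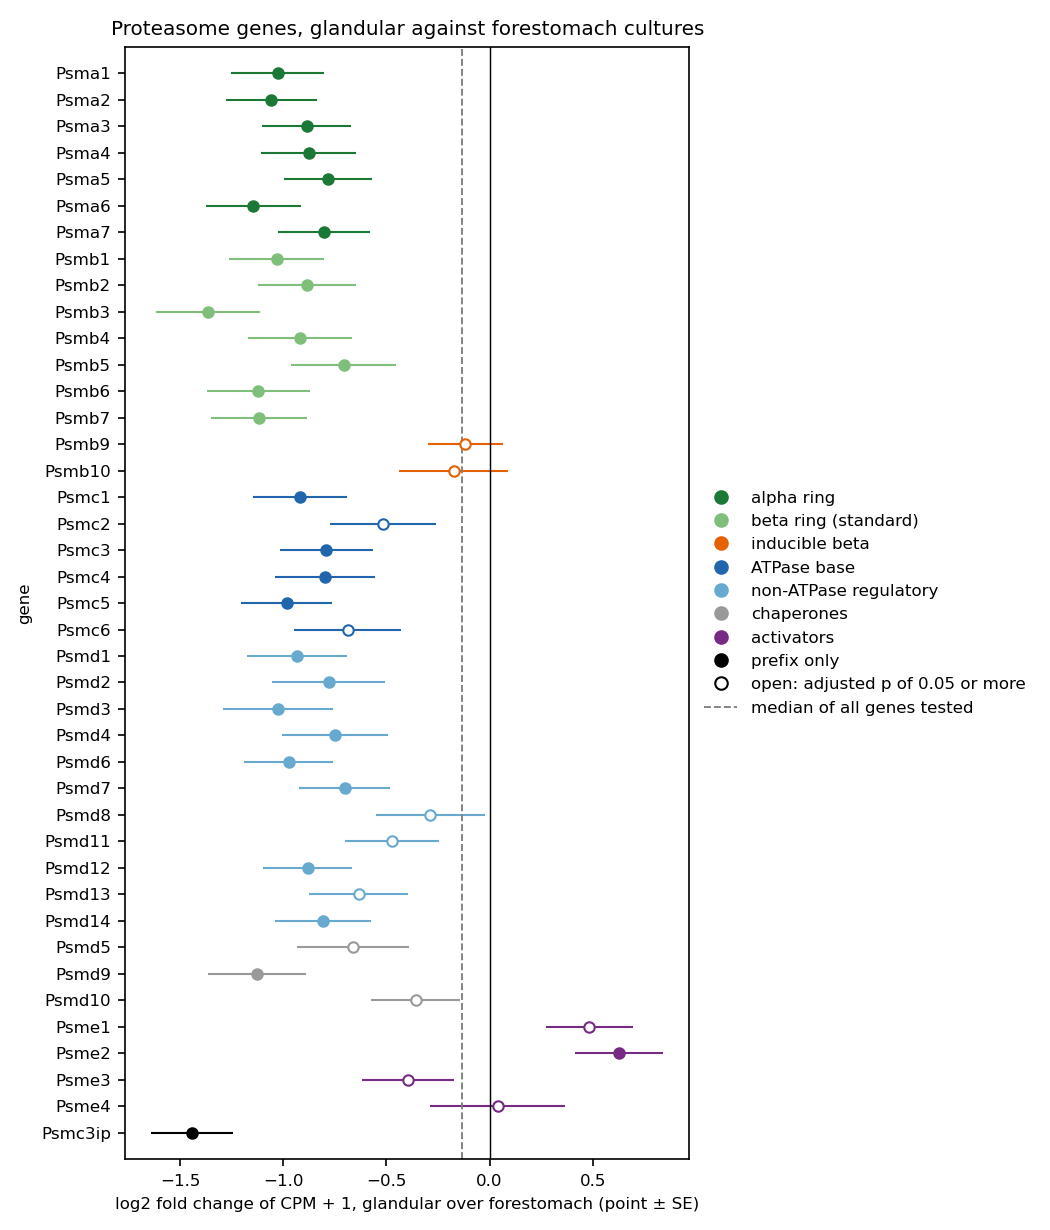
Log2 fold change of CPM + 1 with its SE for each of the 41 tested members, glandular over forestomach, from the limma fit. Filled points passed an adjusted p of 0.05, the solid line marks 0 and the dashed line the median of all genes tested (-0.13). All core and regulatory particle genes lie left of 0, and Psme2 is the only filled point right of it.

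Of the 4 activators 1 was higher, none was lower and 3 did not pass, with a median log2 fold change of 0.26. Psme1 and Psme2 encode the subunits of an interferon-inducible activator ring, Psme3 a related nuclear activator and Psme4 a large single-chain activator. Psme2 was the 1 member that was higher in the glandular cultures, at 22.4, 21.5, 17.1 and 17.5 CPM in antrum 1, antrum 2, corpus 1 and corpus 2, against 13.1 and 11.4 CPM in forestomach 1 and 2. Every glandular library was above both forestomach libraries, and the log2 fold change was 0.63 (SE 0.21, adjusted p = 0.0361 in the limma fit). That call was lost when any 1 glandular library was left out, with adjusted p of 0.0937 to 0.133. Psme2b, a close copy of Psme2, was listed at 0, so no reads of Psme2 were counted on its row. The sources used here do not say whether reads that match both genes were counted.

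Psme1 stood at 18.0, 19.5, 14.9 and 13.9 CPM in antrum 1, antrum 2, corpus 1 and corpus 2, against 11.6 and 11.3 CPM in forestomach 1 and 2. Its groups did not overlap, but its log2 fold change of 0.48 did not pass (SE 0.21, adjusted p = 0.0883 in the limma fit). After rescaling to a common median ratio it passed at 0.68 (adjusted p = 0.0167), and after rescaling to the listed total also at 0.68 (adjusted p = 0.0147). Psme3 stood at 71.5, 60.5, 51.9 and 46.2 CPM in the glandular libraries, against 77.3 and 72.6 CPM in forestomach, and did not pass (-0.39, SE 0.22, adjusted p = 0.176), although its groups did not overlap. Psme4 stood at 111, 126, 98.0 and 95.4 CPM in the glandular libraries, between the forestomach values of 156 and 69.2 CPM. Its value therefore rested on which forestomach library was used. With both it was 0.04 (SE 0.33, adjusted p = 0.932), without forestomach 1 it was 0.62 (adjusted p = 0.0291) and without forestomach 2 it was -0.54 (adjusted p = 0.0458).

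The forestomach libraries differed from each other along the members' length. Across the 41 tested members, which share the same libraries and are not replicates, the log2 ratio of forestomach 2 to forestomach 1 had a Pearson's r of -0.51 and a Spearman's rho of -0.38 with log2 exonic length. Across 5619 genes at 10 CPM or more in both libraries r was likewise -0.51. The median log2 ratio was 0.12 in the 14 standard core genes and -0.17 in the 17 regulatory particle genes. The core's median log2 fold change, glandular over forestomach, was -0.98 with forestomach 2 alone and -0.95 with forestomach 1 alone. The regulatory particle's was -0.79 with forestomach 2 alone and -0.95 with forestomach 1 alone. The part of this difference between the forestomach libraries in the class values was not tested. For the ratio of library 2 to library 1 in corpus, r with length was 0.07 across the members and 0.32 across 5478 genes at 10 CPM or more. In antrum r was 0.20 across the members and 0.22 across 5976 such genes, so the sign was opposite to forestomach in both regions.

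**Figure D4:**
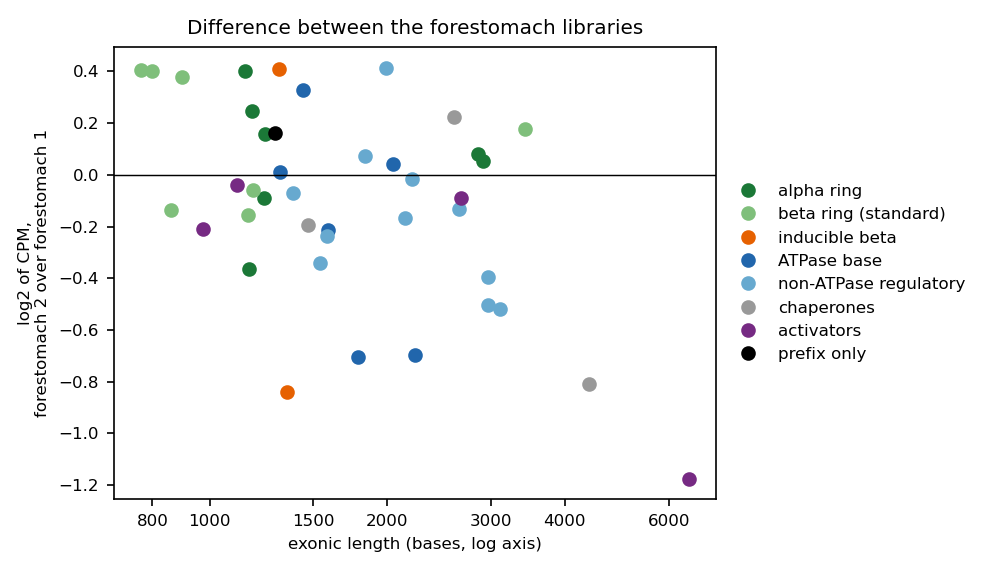
Log2 ratio of CPM, forestomach 2 over forestomach 1, against exonic length in bases (log axis) for the 41 tested members, coloured by class. Of the shortest genes, Psmb3, Psmb6 and Psmb5 lie at 0.41, 0.40 and 0.38, but Psmb2 and Psme2 lie at -0.14 and -0.21. Psme4, the longest, lies at -1.17.

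Other genes of proteasome assembly and function were lower or did not pass. Of 14 tested assembly factors and subunits without the prefix 8 were lower, none higher and 6 did not pass (median log2 fold change -0.72). The shares over all genes tested were 26.7% lower and 21.1% higher. The small lid subunit Shfm1 had the lowest value, at 25.3 ± 4.86 CPM over the glandular cultures (SD, n = 4) and 87.7 ± 3.13 CPM in forestomach (SD, n = 2), giving a log2 fold change of -1.77 (with SE 0.23, adjusted p = 0.000209 in the limma fit). The core assembly chaperones Psmg2 (-1.14, SE 0.23, adjusted p = 0.00307) and Psmg1 (-1.12, SE 0.23, adjusted p = 0.00311) followed.

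Of 12 tested shuttle and segregase genes 2 were lower, the cofactor Nsfl1c (-0.91, SE 0.24, adjusted p = 0.0126 in the limma fit) and the shuttle Rad23b (-0.81, SE 0.27, adjusted p = 0.0353). None was higher. The others did not pass, and the median log2 fold change of the 12 was -0.33. With 26.7% of all genes tested lower and 21.1% higher, 2 of 12 lower did not exceed the share of all genes. None of the 6 ubiquitin and E1 genes passed in limma, and none had an unadjusted p under 0.05.

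Among 8 tested regulators of proteasome genes 3 were higher, none was lower and 5 did not pass (median log2 fold change 0.61). As 21.1% of all genes tested were higher and 26.7% lower, these counts are a description. The oxidative stress factor Nfe2l2 stood at 280, 312, 174 and 158 CPM in antrum 1, antrum 2, corpus 1 and corpus 2, against 106 and 79.1 CPM in forestomach (1.26, SE 0.25, adjusted p = 0.00257 in the limma fit). Its partners Maff (1.64, SE 0.32, adjusted p = 0.00258) and Mafg (1.09, SE 0.29, adjusted p = 0.0119) were higher too. Nfe2l1, the factor that drives proteasome genes when the proteasome is inhibited and named here after its values were seen, stood at 110, 79.5, 108 and 86.7 CPM in the glandular libraries, against 121 and 29.5 CPM in forestomach. Its forestomach values enclosed all glandular ones, and it did not pass (0.66, SE 0.47, adjusted p = 0.28).

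Between the glandular regions no proteasome gene passed. The comparison of antrum with corpus, grown by the same protocol, called 0 of 41 members in the limma fit in either direction, against 0.555% of all genes tested higher and 0.202% lower, and no member had an unadjusted p under 0.05. Of the 41 members 39 had a positive log2 fold change, with a median of 0.27, but the median of all genes tested was 0.21 in the same direction. Without overlap between the regions 23 members (56.1%) were higher in antrum, against 45.4% of all genes tested, and none was lower, against 5.32%. The summed level of the standard core was 686 ± 38.3 CPM in antrum and 605 ± 64.2 CPM in corpus (SD, n = 2 each). That of the regulatory particle was 1079 ± 97.7 CPM in antrum and 888 ± 108 CPM in corpus. Neither sum overlapped between the regions, and the sums were not tested. After rescaling to a common median ratio the median of all genes was 0.02, and that of the members was 0.05.

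By library, all 7 beta ring genes were lower in library 2 than in library 1 in corpus and in antrum, with a median log2 ratio of -0.40 and -0.34. Of the alpha ring genes 3 of 7 were higher in corpus 2 and 6 of 7 in antrum 2, with medians of -0.13 and 0.08. Over all genes tested library 1 was the higher one as well. The median log2 difference of CPM + 1, library 1 minus library 2, was 0.146 in corpus and 0.128 in antrum. For Psme1 the log2 fold change of antrum over corpus was 0.36 (SE 0.24, adjusted p = 0.81), for Psme2 0.33 (SE 0.25, adjusted p = 0.826), for Psme3 0.42 (SE 0.26, adjusted p = 0.787) and for Psme4 0.29 (SE 0.38, adjusted p = 0.855). The activators had no overlap between antrum and corpus, and none passed. For the inducible subunits it was 0.32 for Psmb9 (SE 0.21, adjusted p = 0.802) and 0.32 for Psmb10 (SE 0.30, adjusted p = 0.835), and for the standard ones 0.15 for Psmb5, 0.31 for Psmb6 and 0.11 for Psmb7, of which Psmb5 and Psmb7 turned negative under both rescalings.

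In these bulk libraries fewer cells of a type and less RNA per cell cannot be told apart. Fibroblast markers moved with the comparison against forestomach. All 9 have a row, and they summed to 57.0, 51.2, 80.3 and 37.5 CPM in antrum 1, antrum 2, corpus 1 and corpus 2, against 0.29 and 0.12 CPM in forestomach. Their part in the proteasome values was not tested.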

How the data were processed

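Total RNA of the cultures was depleted of ribosomal RNA before sequencing, as the labels' protocols state. Expression was deposited by the authors as 1 table of CPM, rounded to 2 decimals, whose columns name a region and a number that the labels do not tie to sample IDs. The column named pylorus was taken as antrum. STAR, HTSeq, DESeq2, edgeR and build mm9 are named without role or version, per the submitters' processing notes. The annotation and the use of strand were not given in the sources used here. Overlapping and antisense genes may therefore share reads. From 15450 rows, 19 date-like symbols were dropped (up to 0.206% of a library's listed CPM). Listed values summed to 33.2% to 48.4% of the scale, so rescaled fits were run too. With the inferred step of 1 read, 100% of values under 200 CPM were whole within the rounding (0.0051 CPM), but only 43.7% to 51.9% of values under 3 CPM lay within 0.1 of a whole read, so no count test was run.

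Genes that reached 1 CPM in 2 or more libraries were fitted as log2(CPM + 1) with limma 3.58.1 in R 4.3.3 (eBayes with trend), with 3 group means, no block, 3 residual and 6.1 prior degrees of freedom, and two-sided tests with Benjamini-Hochberg adjustment over all 11891 genes at 0.05. Glandular is the mean of corpus and antrum. Corpus and antrum have 4 libraries together and share the forestomach libraries. A gene that reaches the filter in 1 group only had to differ. The fit was tested on simulated data. Ratios were tested with scipy 1.17.1, and lengths are unions of exons of coding transcripts in GENCODE M21 on GRCm38. Intervals and floors cover counting error only.

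The members and lists were chosen with earlier results of these data known. Full statistics were given for the standard catalytic subunits, their inducible counterparts, the activators and, per class, the called members with the largest change in each direction, and for related lists for up to 3 called genes in each direction. Alternatives were other pseudocounts, filters and scalings, a replicate block, and each library left out.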

Additional observations from a re-analysis of the deposited data

How the results depend on the processing

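The 28 members lower in the glandular cultures than in forestomach became 27 without a filter on low values or with a filter at 5 CPM, 25 and 27 under the rescalings to a common median ratio and to the listed total, and 14 to 31 when 1 library was left out. The lone library then left in a region is assumed to vary like the others. The 1 higher member became 2 without the filter and under each rescaling, and 0 to 2 when 1 library was left out. Pseudocounts of 0.5 and 2 kept all 29 calls. Psmb10, glandular over forestomach, turned to 0.0100 under the median ratio and 0.0128 under the listed total, and ranged from -0.361 to 0.0132 with a library left out. Psme4 ranged from -0.54 to 0.62. Antrum over corpus, Psmb5 turned to -0.0506 under the median ratio and -0.00774 under the listed total, with a range of -0.0694 to 0.375 when a library was left out. Psmb7 turned to -0.106 and -0.0603, with a range of -0.0501 to 0.27. The cause was not tested. No member was called between antrum and corpus under any alternative run.

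With a replicate block by column number, 31 members were lower and 1 higher against forestomach and 0 were called between antrum and corpus. The numbers are not tied to the IDs in the labels, so what they stand for is not known. Across 11891 genes same-numbered deviations correlated at 0.61 between corpus and antrum, -0.06 between forestomach and corpus and -0.11 between forestomach and antrum. Same-numbered corpus and antrum libraries thus deviated together, and the 4 glandular libraries may not be independent. The main fit, the SDs over these 4 libraries and the permutation tests treat them as independent. Count tests on recovered reads were not run, because only 43.7% to 51.9% of values under 3 CPM lay within 0.1 of a whole read. Psmb8 and Psmb9 are limited by their few reads.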

Other observations

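Interferon response genes, which include known inducers of the immunoproteasome, were called higher in the glandular cultures in 6 of 9 tested genes. The other 3 did not pass. Over all genes tested the shares were 21.1% higher and 26.7% lower. Of the 6, Oas1a, Irf7, Irf8 and Rsad2 were under 1 CPM in both forestomach libraries and entered the fit only through the glandular ones, so this count is a description. The antiviral gene Oas1a stood at 6.84, 6.40, 4.86 and 3.67 CPM in antrum 1, antrum 2, corpus 1 and corpus 2, against 0.95 and 0.72 CPM in forestomach 1 and 2. Its log2 fold change was 1.79, and its p-value is left out because of the way it entered the fit. The transcription factors Irf9 (1.76, SE 0.25, adjusted p = 0.000411 in the limma fit) and Irf1 (1.54, SE 0.32, adjusted p = 0.00337) followed. Both were above 1 CPM in each forestomach library. All of these levels were low, at most 11.3 CPM in any library. Between antrum and corpus none of the 9 passed.

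Most proliferation genes went the way of the standard core. In the glandular cultures 11 of 13 tested genes were lower and none was higher (median log2 fold change -1.13). Among all genes tested 26.7% were lower and 21.1% higher. Rrm2, a subunit of ribonucleotide reductase, stood at 30.7, 40.5, 20.1 and 21.3 CPM in antrum 1, antrum 2, corpus 1 and corpus 2, against 170.2 and 187 CPM in forestomach 1 and 2, giving a log2 fold change of -2.68 (with SE 0.23, adjusted p = 1.5e-05 in limma). The mitotic cyclin Ccnb1 (-2.01, SE 0.23, adjusted p = 0.000104) and its kinase Cdk1 (-1.86, SE 0.24, adjusted p = 0.00022) followed. Mki67 had a positive log2 fold change (0.38) and Top2a a negative one (-0.65), and neither passed. Both differed widely between the forestomach libraries, Mki67 at 239 and 74.1 CPM and Top2a at 390 and 185 CPM. The part of proliferation in the proteasome values was not tested.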
